A study of Mus musculus with 8 samples.

Results

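The genes described here are 10 members of the Hedgehog pathway and of the forkhead factors of the gut wall: Gli1, Gli2, Gli3, Ptch1, Smo, Hhip, Gas1, Foxf1, Foxf2 and Foxl1. They were chosen by symbol, for their known roles, from the 45321 genes to which reads were assigned. Polyadenylated RNA of adherent mouse colon fibroblasts was sequenced in 8 libraries. The genotype label reads Zeb1 flox/flox for the 4 Fib-Ctrl libraries, and Zeb1 del/del for the 4 named Fib-dZeb1. All cultures were derived from animals with loxP-flanked Zeb1, the gene of a zinc-finger repressor, and in Fib-dZeb1 the gene was deleted in the dish by induced Cre recombinase. Both genotypes are represented by 2 cultures, numbered line 1 and line 2 in the labels, and every culture by 2 replicates. The treatment label of every library is none, ages are not given, and it is not stated for these lines which Cre driver was used, whether Fib-Ctrl cultures received the same Cre treatment, or whether the tissue was normal colon or a chemically induced tumour. Genotype and Cre treatment therefore cannot be told apart.

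The 8 libraries held 18852422 to 25540529 assigned reads. Zeb1 lay between 92.1 and 98.5 CPM (reads scaled to a common library size) in the Fib-Ctrl libraries and between 11.4 and 18.3 in the Fib-dZeb1 libraries, a fall of 2.73 on the log2 scale (adjusted p 4.8e-05, edgeR). Xist was read in line 1 of Fib-dZeb1 alone and Ddx3y in the other 3 lines alone, so 1 culture differed from the rest in sex. The cells carried fibroblast markers: Vim lay between 2700 and 4640 CPM in the controls and between 2790 and 3610 in Fib-dZeb1, and Pdgfra between 283 and 566 and between 268 and 584. Of the 8 fibroblast markers read, these 2 are among 6 that were not called different between the genotypes. Col1a1 and Col1a2 were called lower in Fib-dZeb1 (-1.65 and -1.76 on the log2 scale, adjusted p 0.00761 and 0.00633, edgeR), and the summed level of the 8 was lower too (values below). P-values below measure the spread between libraries, and since a genotype is 2 cultures, those over all 8 libraries count replicates of a culture as if they were cultures of their own.

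Hedgehog signalling is the route by which the gut epithelium instructs the mesenchyme beneath it. The epithelium secretes the ligands Sonic and Indian hedgehog, and the receptor Ptch1 on mesenchymal cells holds the membrane protein Smo inactive until a ligand binds. Active Smo, acting in the primary cilium, turns the zinc-finger proteins Gli2 and Gli3 from repressors into activators. Gli1 and Ptch1 are themselves direct targets and serve as the usual readouts of the pathway, as does Hhip, a decoy receptor that binds and sequesters the ligands. Gas1 is a membrane-anchored co-receptor that helps Ptch1 to bind ligand. Foxf1, Foxf2 and Foxl1 are forkhead transcription factors of the gut mesenchyme that lie downstream of Hedgehog signals and mark the fibroblasts and telocytes next to the crypts.

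Gli2, Gas1 and Foxf2 were the members called different between cultures of the same genotype (values below), and the sequence just upstream of each is shown to place them in the genome. Each run is the 250 bases before the RefSeq start of the gene on its own strand (RefSeq, GRCm38.p6), with CpG dinucleotides in capitals.
Gli2, chr1:119053620-119053869, minus strand: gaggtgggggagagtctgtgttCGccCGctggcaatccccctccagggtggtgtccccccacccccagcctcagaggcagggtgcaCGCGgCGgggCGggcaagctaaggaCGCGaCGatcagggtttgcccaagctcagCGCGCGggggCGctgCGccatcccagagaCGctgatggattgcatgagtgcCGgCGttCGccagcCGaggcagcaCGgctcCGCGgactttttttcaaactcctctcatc
Gas1, chr13:60177536-60177785, minus strand: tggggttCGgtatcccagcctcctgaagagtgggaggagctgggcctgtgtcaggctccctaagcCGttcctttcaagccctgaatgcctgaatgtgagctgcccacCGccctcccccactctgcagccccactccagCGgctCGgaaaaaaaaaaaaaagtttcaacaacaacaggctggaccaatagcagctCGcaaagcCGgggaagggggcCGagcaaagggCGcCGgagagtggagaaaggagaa
Foxf2, chr13:31625566-31625815, plus strand: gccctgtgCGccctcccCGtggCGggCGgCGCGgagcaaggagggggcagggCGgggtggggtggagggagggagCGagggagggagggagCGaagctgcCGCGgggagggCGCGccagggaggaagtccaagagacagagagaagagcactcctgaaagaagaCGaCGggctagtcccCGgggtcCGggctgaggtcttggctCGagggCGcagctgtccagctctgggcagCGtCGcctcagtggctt
The Gli2 window overlapped no annotated exon, whereas that of Gas1 overlapped an exon of Gm48488 and that of Foxf2 an exon of 1700018A04Rik. CpG dinucleotides numbered 22, 10 and 21 in the windows of Gli2, Gas1 and Foxf2, against a median of 6 over the 32851 promoters of the table. Of the 10 members, 7 had an entry (Gli1, Foxf1 and Foxl1 did not), and their G and C content ran from 58.8% in Gas1 to 78.4% in Ptch1 against a median of 52.4%. The windows were searched on both strands for a Gli site (GACCACCCA, held by 0.225% of all promoters), an E-box of the type ZEB1 binds (CACCTG, 17.2%) and a forkhead site (GTAAACA, 3.17%), and none of the 7 held an exact match to any of them.

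The members fell into 7 that were well expressed and 3 that were close to silent. Levels are compared between genes in TPM, the read density after division by transcript length, scaled to a fixed total. In the order of the mean over 8 libraries, Smo stood at 117 TPM, Foxf1 at 76.3, Gas1 at 68.4, Foxf2 at 26.0, Gli3 at 17.2, Gli2 at 9.31 and Ptch1 at 7.62. Far below them came Gli1 at 0.271 TPM, Foxl1 at 0.134 and Hhip at 0.0616. Smo was thus higher than 93.8% of the genes with any TPM, and Gli1 higher than 32.0%. The libraries of Smo (99.1 to 136 TPM) lay above all those of Foxf1 (64.4 to 94.2), whereas those of Gas1 (4.59 to 136) spanned both. Gli2 (3.63 to 12.5 TPM) and Ptch1 (5.33 to 9.82) overlapped, as did Gli1, Foxl1 and Hhip with each other. In CPM, without division by length, 4 members changed rank: Gas1 passed Foxf1, and Gli3 passed Foxf2.

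**Figure D1:**
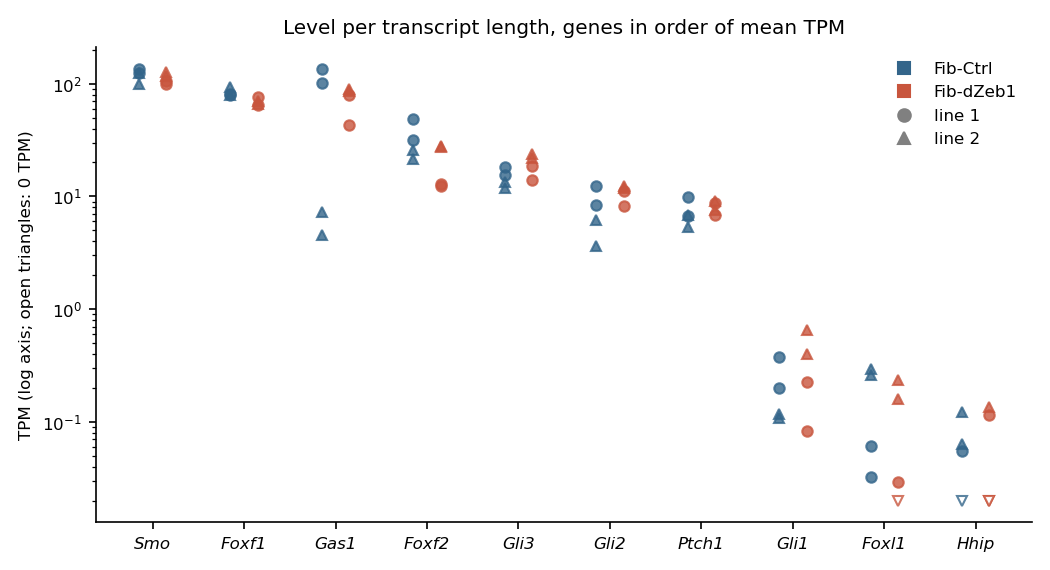
TPM of the 10 genes in each library on a log axis, in order of mean TPM; blue is Fib-Ctrl, red Fib-dZeb1, circles line 1, upright triangles line 2, and open triangles at the bottom libraries with 0 TPM. A gap separates Ptch1 (5.33 TPM or more) from Gli1, Foxl1 and Hhip (0.653 TPM or less), and the Gas1 values of Fib-Ctrl line 2 (4.59 and 7.32 TPM) sit far below its other 6 values.

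The comparison of Fib-dZeb1 with Fib-Ctrl asks which genes changed with the loss of Zeb1. Of the 10 members, 7 passed the filter on low counts and were tested, and Foxf1 was the only one called at an adjusted p under 0.05 (edgeR quasi-likelihood test, adjusted over all 12963 genes tested). None was called higher, with 7.54% of all tested genes called higher and 8.65% called lower. At an unadjusted p under 0.05, none was higher and 2 were lower (Foxf1 and Foxf2). The share of all genes under that p was not counted, so these 2 cannot be set against it. DESeq2 called 0 members higher and 1 lower, beside 1573 and 1758 of 15088 genes. The 7 log2 fold changes had a median of 0.02, beside -0.005 over all genes tested. In bulk samples like these, fewer cells expressing a gene and less of its RNA per cell cannot be told apart.

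Foxf1, which is needed for the growth and patterning of the gut wall mesenchyme, fell 1.36-fold in Fib-dZeb1. It read 107 and 109 CPM in Fib-Ctrl line 1 and 109 and 131 in line 2, against 90.4 and 81.3 in Fib-dZeb1 line 1 and 83.9 and 79.8 in line 2. Every Fib-dZeb1 library was lower than every Fib-Ctrl library, a lack of overlap in this direction that 12.3% of all tested genes also had. The means were 114 ± 11.6 and 83.9 ± 4.67 CPM (SD, n = 4 libraries each), and the log2 fold change was -0.45 (SE 0.10, 95% interval -0.67 to -0.22, adjusted p 0.0194, edgeR). In TPM the libraries did not overlap either, at 78.6 to 94.2 against 64.4 to 75.6. The call did not hold with library sizes alone as the scale (-0.27, adjusted p 0.081), with a correlation within lines estimated (limma-voom, -0.44, adjusted p 0.147), with the reads of each line summed (-0.46, adjusted p 0.321) or on log2(TPM + 1) with limma (-0.27, adjusted p 0.0752). It was also lost without Fib-dZeb1 line 1 replicate 2 (adjusted p 0.0511), line 2 replicate 1 (0.0511) or line 2 replicate 2 (0.0653, all edgeR). Since the genotypes did not overlap, leaving out a single library could not turn the direction.

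Foxf2, the close relative of Foxf1 in gut fibroblasts, was low in 1 of the 4 lines. Fib-Ctrl line 1 read 40.6 and 65.2 CPM and line 2 28.8 and 34.9, while Fib-dZeb1 line 1 read 15.2 in both replicates and line 2 32.0 and 33.4. The Fib-dZeb1 line 1 libraries thus lay below all others, and those of Fib-dZeb1 line 2 lay within the range of Fib-Ctrl line 2. Over the genotypes the log2 fold change was -0.82 (SE 0.35, 95% interval -1.62 to -0.03) and did not pass the test (adjusted p 0.14, edgeR).

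Foxl1, a marker of the telocytes beneath the epithelium, was close to the limit of detection. Fib-Ctrl line 1 held 2 and 1 reads and line 2 7 and 9, and Fib-dZeb1 line 1 held 0 and 1 reads and line 2 7 and 6. The pooled reads were 19 in Fib-Ctrl (95% Poisson interval 11.4 to 29.7, counting error only) and 14 in Fib-dZeb1 (7.65 to 23.5). In both genotypes the reads came mainly from line 2.

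**Figure D2:**
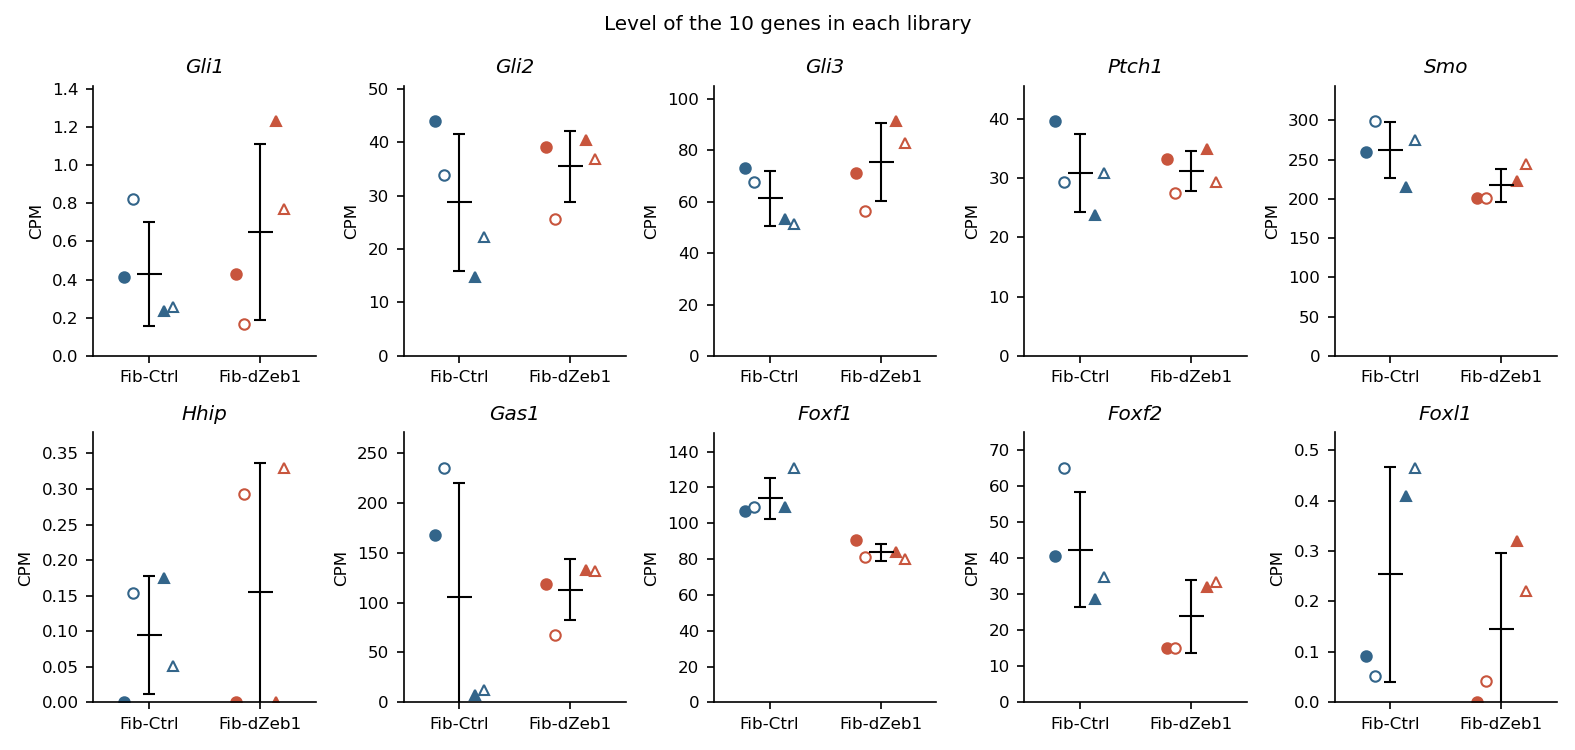
CPM of each of the 10 genes by library (each panel on its own linear axis from 0); line 1 is drawn as circles and line 2 as triangles, filled for replicate 1 and open for replicate 2, and bars give the mean and SD over a genotype's 4 libraries, cut at 0. The genotypes separate for Foxf1 (107 to 131 against 79.8 to 90.4 CPM) and overlap for the other 9 genes, and Gas1 stands near 0 in Fib-Ctrl line 2 alone.

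The receptor Ptch1, both the gate of the pathway and one of its targets, did not differ between the genotypes beyond the spread of the libraries. It read 39.6 and 29.3 CPM in Fib-Ctrl line 1 and 23.8 and 30.8 in line 2, against 33.2 and 27.5 in Fib-dZeb1 line 1 and 34.9 and 29.4 in line 2. All Fib-dZeb1 values lay inside the Fib-Ctrl range. The log2 fold change was 0.02 with a 95% interval of -0.35 to 0.38 (adjusted p 0.959, edgeR). Its sign turned to -0.15 without Fib-Ctrl line 2. Reads of Ptch1 were shared between 2 main protein-coding transcripts. Ptch1-202 held 58.01% of them in Fib-Ctrl (43.81% to 65.28% over libraries) and 70.63% in Fib-dZeb1 (61.32% to 74.07%), and Ptch1-201 held 39.54% and 26.16%. These shares overlap between the genotypes and rest on how Salmon divides reads between transcripts that share most of their length.

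Smo, the signal transducer and the most abundant member, did not pass the test. Fib-Ctrl read 260 and 299 CPM in line 1 and 215 and 275 in line 2, and Fib-dZeb1 read 201 in both replicates of line 1 and 223 and 245 in line 2. The lowest Fib-Ctrl library overlapped the Fib-dZeb1 line 2 libraries. The log2 fold change was -0.27 (SE 0.12, 95% interval -0.55 to 0.01, adjusted p 0.171, edgeR). The transcript Smo-201 carried 95.31% of its reads in Fib-Ctrl and 95.72% in Fib-dZeb1.

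Gas1 had the widest range of the tested members, and that range lay within Fib-Ctrl. In Fib-Ctrl it read 168 and 235 CPM in line 1 but 7.86 and 12.8 in line 2, and in Fib-dZeb1 119 and 67.9 in line 1 and 133 and 132 in line 2. Only Fib-Ctrl line 2 was low, and the Fib-dZeb1 values lay between those of the Fib-Ctrl lines. The genotype log2 fold change of 0.09 had a 95% interval of -2.0 to 2.19 (adjusted p 0.957, edgeR), which leaves the direction unresolved. Its sign depended on the Fib-Ctrl line used. It was -0.84 without Fib-Ctrl line 2 (adjusted p 0.0873) and 3.45 without Fib-Ctrl line 1 (adjusted p 0.00362). It was 1.23 with line number as a term (adjusted p 0.47), 1.35 with limma on log2(TPM + 1) (adjusted p 0.363) and 1.24 with limma-voom and a correlation within lines (adjusted p 0.536).

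The decoy receptor Hhip was almost without reads, with 0 and 3 in Fib-Ctrl line 1, 3 and 1 in line 2, 0 and 7 in Fib-dZeb1 line 1, and 0 and 9 in line 2. The sums were 7 reads in Fib-Ctrl (95% Poisson interval 2.81 to 14.4) and 16 in Fib-dZeb1 (9.15 to 26.0). The 3 libraries without a read belong to both genotypes, and these intervals overlap.

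Among the Gli factors, Gli1, the activator whose transcript rises with Hedgehog signalling, was barely present. Fib-Ctrl held 9 and 16 reads in line 1 and 4 and 5 in line 2, and Fib-dZeb1 held 9 and 4 reads in line 1 and 27 and 21 in line 2. Fib-dZeb1 line 2 was the highest of the 4 lines, at a mean of 1.0 CPM. The pooled reads were 34 in Fib-Ctrl (95% Poisson interval 23.5 to 47.5) and 61 in Fib-dZeb1 (46.7 to 78.4), intervals that cover counting error only and leave out the spread between cultures. Without the filter on low counts, edgeR gave Gli1 an adjusted p of 0.599, Hhip 0.721 and Foxl1 0.669.

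Gli2, the main activator of the pathway, was lowest in Fib-Ctrl line 2. Its CPM were 43.9 and 33.9 in Fib-Ctrl line 1, 14.7 and 22.3 in line 2, 39.0 and 25.7 in Fib-dZeb1 line 1, and 40.3 and 36.9 in line 2. All Fib-dZeb1 libraries lay above Fib-Ctrl line 2 and inside the range of the Fib-Ctrl libraries. The log2 fold change was 0.30 (SE 0.32, 95% interval -0.41 to 1.02, adjusted p 0.545, edgeR). It was -0.14 without Fib-Ctrl line 2 and 0.94 without Fib-Ctrl line 1 (adjusted p 0.0458).

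Gli3, the main repressor, was highest in Fib-dZeb1 line 2. It read 73.2 and 67.7 CPM in Fib-Ctrl line 1, 53.4 and 51.3 in line 2, 71.0 and 56.2 in Fib-dZeb1 line 1, and 91.3 and 82.9 in line 2. The genotypes overlapped through line 1, and the log2 fold change was 0.29 (SE 0.18, 95% interval -0.11 to 0.70, adjusted p 0.287, edgeR). The full-length transcript Gli3-201 held 92.25% of its reads in Fib-Ctrl and 93.89% in Fib-dZeb1, and Gli2-201 held 98.54% and 99.19% of those of Gli2. Gli3 was above Gli2 in each of the 8 libraries in TPM.

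The genotypes were next compared within each line number, in a fit that gave every line its own mean. The labels do not say that lines of the same number share an animal, and line 1 of the 2 genotypes differs in sex, so each contrast compares 1 culture with 1 other and its p covers only the spread between replicate libraries. In line 1, 3 of the 7 tested members were lower in Fib-dZeb1 and none was higher, all 7 having log2 fold changes below 0. Of all genes, 13.6% were called higher there and 13.8% lower (27.4% either way). These were Foxf2 (log2 fold change -1.80, adjusted p 0.00231), Gas1 (-1.11, adjusted p 0.0326) and Smo (-0.47, adjusted p 0.043, all edgeR). With library sizes alone as the scale, Smo was no longer called (-0.32, adjusted p 0.14). In line 2, 3 members were higher and 1 was lower, where 14.1% of all genes were called higher and 14.6% lower (28.8% either way). Gas1 (3.68, adjusted p 0.000689), Gli2 (1.06, adjusted p 0.0231) and Gli3 (0.73, adjusted p 0.0074) were higher, and Foxf1 was lower (-0.56, adjusted p 0.0126, all edgeR), a call that library sizes alone ended (-0.35, adjusted p 0.0612).

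The difference between the 2 contrasts was itself tested. It passed for Gas1 (4.79 on the log2 scale, SE 0.46, adjusted p 0.00193), Foxf2 (1.84, SE 0.31, adjusted p 0.0105) and Gli3 (0.88, SE 0.19, adjusted p 0.0221, edgeR), all toward higher values in line 2. Of all genes, 7.74% were called in this direction and 7.55% in the other (15.3% either way). For Gli2 it did not pass (1.33, adjusted p 0.0505), but did with library size only (1.38, adjusted p 0.0463). For Foxf1 the contrast was -0.33 in line 1 and -0.56 in line 2, and the difference of -0.23 had a 95% interval of -0.61 to 0.16. For Smo the difference was 0.41 (-0.06 to 0.87) and for Ptch1 0.42 (-0.25 to 1.08). The difference was smallest in size for Foxf1, whose line contrasts rest on the same libraries as its call over all of them. Such a call favours genes with a small spread between lines, so the small difference is not separate support for it.

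Cultures of the same genotype differed as well. In Fib-Ctrl, line 2 was 19.4-fold lower than line 1 in Gas1 (-4.28 on the log2 scale, 95% interval -5.10 to -3.46, adjusted p 0.000974) and 2.1-fold lower in Gli2 (-1.07, -1.69 to -0.45, adjusted p 0.0336, edgeR), where 8.72% of all genes were called lower and 8.32% higher (17.0% either way). In Fib-dZeb1, line 2 was 2.16-fold higher than line 1 in Foxf2 (1.11, 0.59 to 1.62, adjusted p 0.0296), where 3.39% of all genes were called higher and 3.48% lower (6.87% either way). Gas1 did not pass there (0.51, -0.20 to 1.21, adjusted p 0.338). Foxf1 and Ptch1 passed in neither genotype, with Foxf1 at 0.16 (-0.11 to 0.43) among Fib-Ctrl libraries and at -0.07 (-0.34 to 0.20) among those of Fib-dZeb1.

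**Figure D3:**
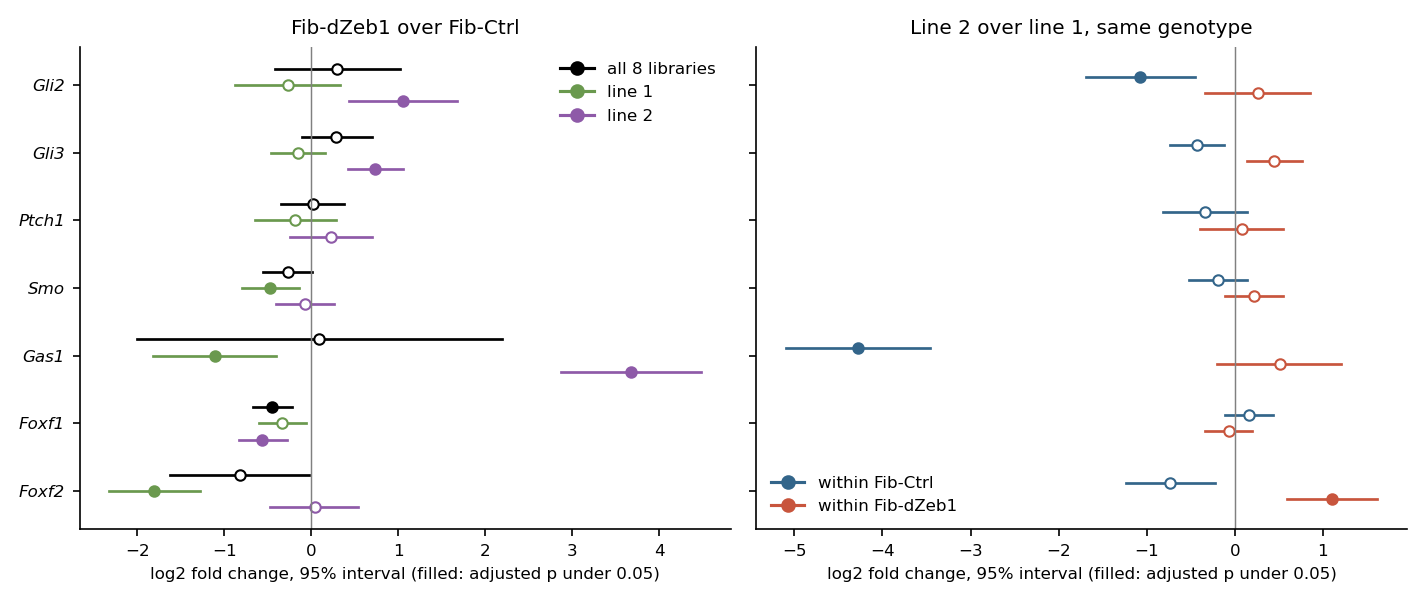
log2 fold changes of the 7 tested genes with 95% intervals. Left, Fib-dZeb1 over Fib-Ctrl in all 8 libraries (black), in line 1 (green) and in line 2 (purple); right, line 2 over line 1 within Fib-Ctrl (blue) and Fib-dZeb1 (red); filled circles have an adjusted p under 0.05. Gas1 points in opposite directions in line 1 (-1.11) and line 2 (3.68), while the Foxf1 intervals lie below 0 in all 3 comparisons on the left.

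Other genes of the pathway were read from lists made up by function. For comparison with each list, edgeR called 7.54% of all 12963 tested genes higher and 8.65% lower. DESeq2 called 1573 higher and 1758 lower of 15088 genes, and limma-voom with an estimated correlation within lines 114 and 146 of 12963. How many of all genes had an unadjusted p under 0.05 was not counted, so the unadjusted counts of the lists have no share to be set against. Of 9 genes for ligands and their release, 4 were tested, with 1 higher and 0 lower (2 unadjusted, 1 in each direction; DESeq2 1 and 1), and the median log2 fold change was -0.28. Shh had 0 reads in all 8 libraries, which allows up to 3 reads in each. Ihh held 3 reads in Fib-Ctrl and 10 in Fib-dZeb1, and Dhh 4 and 11. Scube3, which encodes a secreted protein of a family that helps to release Hedgehog ligands, was higher in Fib-dZeb1 (0.353 ± 0.132 against 3.75 ± 0.858 CPM, n = 4 each, 3.39 on the log2 scale, adjusted p 0.00149, edgeR), and was called with an estimated correlation within lines too (limma-voom, adjusted p 0.0474).

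Of 8 other receptors and co-receptors, 5 were tested and 0 were called in either direction, by edgeR, at an unadjusted p under 0.05 or by DESeq2, with a median of -0.82. The most abundant were the glypicans Gpc4 (183 and 202 CPM, log2 fold change 0.14) and Gpc6 (151 and 141 CPM, -0.10). The co-receptors Cdon and Boc, named here after their values were seen because they share the ligand-binding role of Gas1, had log2 fold changes of -0.82 (95% interval -2.22 to 0.57) and -1.32 (-2.78 to 0.14).

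All 30 genes of the intracellular branch were tested, with 1 higher and 2 lower (DESeq2 2 and 2) and a median of -0.01. With an estimated correlation within lines, limma-voom called 0 in either direction. Arrb2, a beta-arrestin that binds Smo, was higher (6.05 ± 1.33 against 13.9 ± 2.62 CPM, 1.19 on the log2 scale, adjusted p 0.00934, or adjusted p 0.057 with the estimated correlation). Fuz, which acts in the assembly of cilia, was lower (7.07 ± 2.0 against 2.89 ± 0.54 CPM, -1.29, adjusted p 0.0142, edgeR, or adjusted p 0.161 with the estimated correlation). Of 41 genes of the primary cilium, 40 were tested and 0 called by edgeR, with 2 higher and 4 lower at an unadjusted p under 0.05 and 1 higher and 3 lower by DESeq2. Their median was 0.0. The most abundant of them were Kif3b, a motor subunit (52.6 and 54.7 CPM, 0.06), and Arl3, a small GTPase (38.1 and 40.6 CPM, 0.09).

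Of 16 other genes described as Hedgehog targets, 12 were tested, with 1 higher and 2 lower and a median of -0.24. At an unadjusted p under 0.05, 4 were higher and 2 lower, DESeq2 called 5 and 2, and limma-voom with an estimated correlation within lines called 0 in either direction. Bmp4, a signal of the subepithelial mesenchyme, was higher in every Fib-dZeb1 library, going from 0.229, 0.0514, 0.815 and 1.08 CPM in Fib-Ctrl to 152, 29.9, 46.3 and 34.0 CPM (6.93 on the log2 scale, SE 0.86, adjusted p 0.0028, edgeR). With the estimated correlation its adjusted p was 0.236. Igfbp6, a binding protein of insulin-like growth factors, fell (240 ± 21 against 95.1 ± 26.1 CPM, -1.34, adjusted p 0.00558), and so did Osr1, a zinc-finger factor of gut mesenchyme (32.5 ± 3.93 against 14.5 ± 6.74 CPM, -1.16, adjusted p 0.0391, edgeR). With the estimated correlation their adjusted p were 0.0626 and 0.081. Of the members that are targets too, Ptch1 had a log2 fold change of 0.02, and Gli1 and Hhip were not tested.

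Of 24 transcription factors of gut mesenchyme, 18 were tested, with 2 higher and 2 lower and a median of -0.08. DESeq2 called 5 higher and 6 lower, and limma-voom with an estimated correlation within lines 0 and 1. The homeobox factor Meis1 was among those called higher (0.48, adjusted p 0.0423, or adjusted p 0.283 with the estimated correlation). Besides Osr1, the factor called lower was Nkx3-2, at under 1 CPM in both genotypes (adjusted p 0.043 with the estimated correlation). Of 16 markers of subepithelial mesenchyme, 12 were tested, with 2 higher and 2 lower (DESeq2 2 and 3, limma-voom with an estimated correlation 0 and 1) and a median of -0.03. Bmp4 and Bmp3 were higher, the latter from 0.026 to 0.914 CPM (adjusted p 0.061 with the estimated correlation). Wnt4, a secreted signal, was lower (4.09 ± 1.85 against 0.414 ± 0.248 CPM, -3.30, adjusted p 0.0118), as was the tetraspanin Cd81 (355 ± 33.6 against 198 ± 10.7 CPM, -0.84, adjusted p 0.00217, edgeR). With the estimated correlation, Cd81 kept its call (adjusted p 0.0209) and Wnt4 did not (adjusted p 0.146). Foxl1, a defining member of that population, had too few reads to be tested.

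Of 41 other Fox genes, 12 had no reads and 19 were tested, with 1 higher and 2 lower (DESeq2 1 and 3) and a median of -0.11. With an estimated correlation within lines, limma-voom called 0 in either direction. Foxs1 (10.4 ± 7.52 against 0.789 ± 0.499 CPM, -3.72, adjusted p 0.0111) and Foxp1 (161 ± 48.4 against 90.8 ± 7.66 CPM, -0.83, adjusted p 0.0278, edgeR) were lower, with an adjusted p of 0.101 and 0.116 under the estimated correlation.

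**Figure D4:**
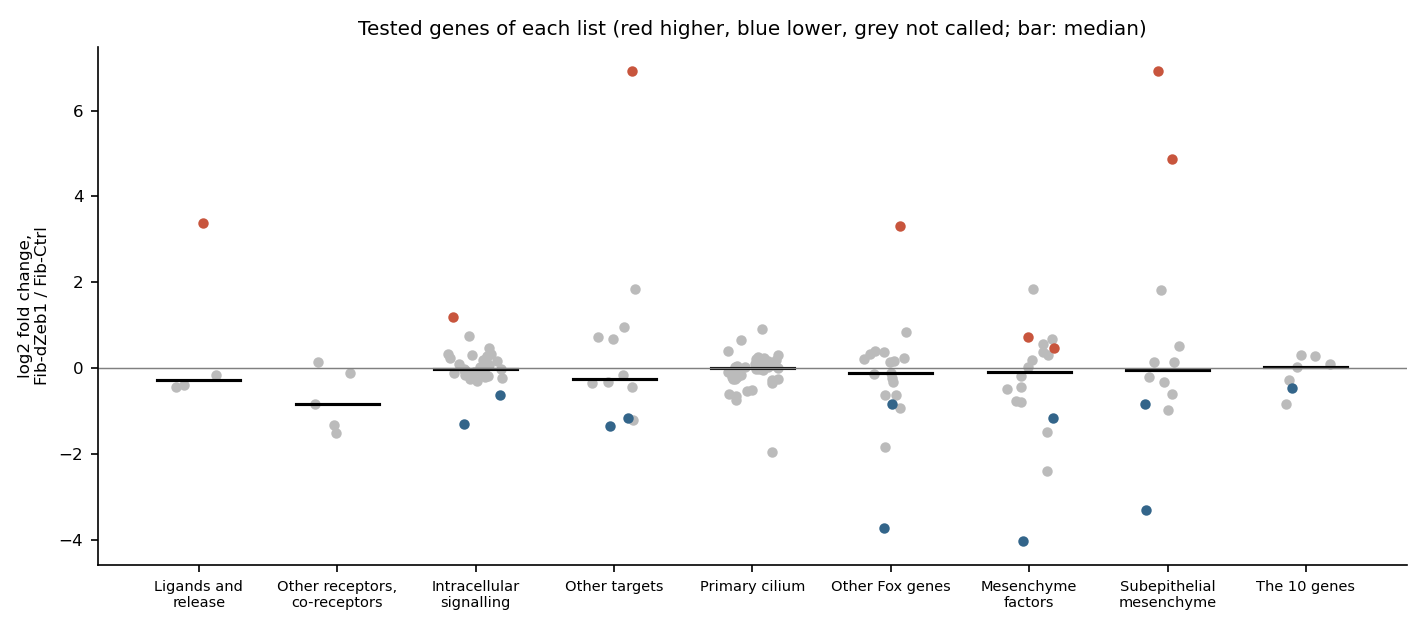
log2 fold changes, Fib-dZeb1 over Fib-Ctrl, of the tested genes of each list; red points were called higher, blue lower, grey not called, and bars are medians. Most genes lie near 0, the primary cilium list has no call, and Bmp4 (6.93) stands above the rest in the 2 lists that hold it.

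Foxf1 and Foxf2 both lie beside other Fox genes. Foxf1 starts at position 121084386 of chromosome 8 (GRCm38, plus strand), and Foxc2 and Foxl1 follow on the same strand, 31785 and 43554 bases further on. Foxc2 read 11.4 ± 2.62 CPM in Fib-Ctrl and 7.36 ± 3.01 in Fib-dZeb1 (log2 fold change -0.62, 95% interval -1.30 to 0.05, adjusted p 0.179). Fendrr, a long non-coding RNA transcribed away from Foxf1 from a start 1276 bases upstream, had a log2 fold change above 0 that did not pass the test (0.53, -0.17 to 1.23, adjusted p 0.271). Mthfsd, whose start is 24006 bases downstream of that of Foxf1, did not overlap between genotypes and did not pass (0.49, 0.05 to 0.93, adjusted p 0.117, edgeR). The remaining tested neighbours within 500 kb were 1190005I06Rik, Gm27021, Cox4i1, Emc8, Gins2 and Fbxo31, of which 1190005I06Rik was called (0.241 against 1.78 CPM, 2.85, adjusted p 0.00604, edgeR). It overlaps Gm27021 on the same strand over most of its length, so the division of reads between them is uncertain. On chromosome 8 as a whole, 7.98% of tested genes were higher and 6.55% lower.

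Foxf2 starts at position 31625816 of chromosome 13 (plus strand). Foxq1, 69682 bases before it, did not pass the test (11 ± 9.71 against 3.08 ± 0.482 CPM, -1.83, 95% interval -3.11 to -0.56, adjusted p 0.0569). A530084C06Rik overlaps Foxq1 on the opposite strand (-0.97, adjusted p 0.143), and reads of the pair cannot be told apart without strand. Foxc1, 180817 bases beyond the start of Foxf2, had a log2 fold change of 0.38 (-0.17 to 0.93, adjusted p 0.313, edgeR). Gli3, Ptch1, Gas1 and Foxf2 are all on chromosome 13, where 6.16% of tested genes were higher and 5.13% lower.

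**Figure D5:**
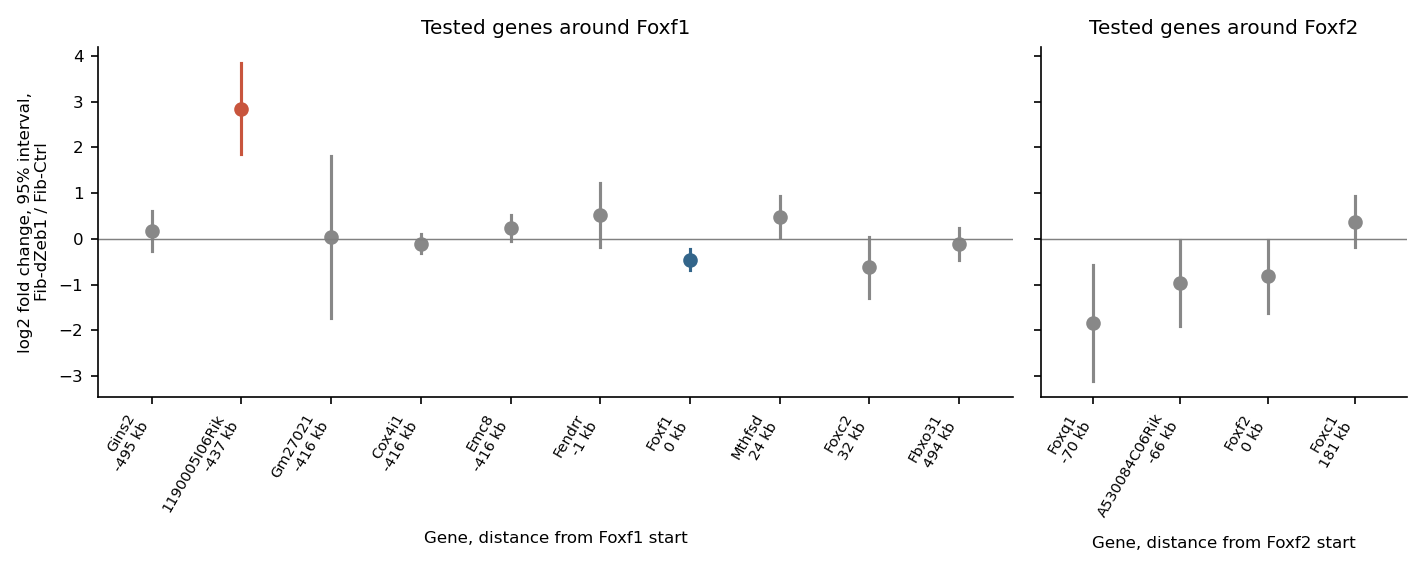
log2 fold changes with 95% intervals, Fib-dZeb1 over Fib-Ctrl, of the tested genes with a start within 500 kb of Foxf1 (left) and Foxf2 (right), in order along the chromosome; red was called higher, blue lower, grey not called. Foxf1 (-0.45) is the only gene called lower in either window, between Fendrr (0.53) and Mthfsd (0.49).

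The genes whose log2 CPM followed a member most closely over the 8 libraries were looked up for Gli1, Foxf1 and Foxl1, among 10122 to 10123 protein-coding genes with a mean of at least 5 CPM. For Foxf1 they were Nek9 (Pearson r 0.978), Bloc1s1 (0.978) and Nenf (0.977). For Gli1 they were Moxd1 (0.965), Dok4 (0.946) and Foxo1 (0.933), and for Foxl1 Nid1 (0.983), Gne (0.981) and Cdh18 (0.979). The 8 points share 4 cultures and 2 genotypes, Gli1 and Foxl1 rest on at most 27 and 9 reads per library, and the values are a description only.

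Markers of other cell types were measured beside these genes. Summed over 10 epithelial markers, the level ran from 2.04 to 32.4 CPM over the Fib-Ctrl libraries and from 4.68 to 26.1 over those of Fib-dZeb1, with Cdx1 and Cdx2, which define intestinal epithelium, at 0 reads in all 8 libraries. Of its 2 tested genes 1 was higher, Epcam, at 3 reads in Fib-Ctrl and 348 in Fib-dZeb1. The other, Krt19, held 212 and 946 reads and was not called (1.82, adjusted p 0.106, edgeR). Among the untested, Krt8 held 1 and 102 reads, Cdh1 3 and 22, Krt20 8 and 16, Vil1 1 and 6 and Muc2 8 and 5. Lgr5 held 1022 and 5 reads, and within Fib-Ctrl it ranged from 0.0582 to 29.6 CPM. The 7 immune markers summed to 2.94 to 4.68 CPM and 2.05 to 3.14, with Adgre1 at 0, the 6 endothelial to 1.34 to 3.07 and 1.17 to 3.96, and the 5 glial to 0.619 to 3.20 and 0.573 to 2.28. Members of the endothelial and glial lists went both ways. In Fib-Ctrl and Fib-dZeb1, Kdr held 72 and 166 reads, Tek 69 and 18 and Pecam1 16 and 4. Erbb3 held 15 and 95 reads, Gfap 27 and 4 and Sox10 19 and 0. The 5 mesothelial markers summed to 0.206 to 1.92 and 2.53 to 9.29, with Msln called higher. Of the other mesothelial markers, Wt1 held 32 and 4 reads, Upk3b 5 and 16 and Lrrn4 0 and 6, and Krt7 was not called (0.09). The 3 markers of interstitial cells of Cajal summed to 14.9 to 30.7 and 48.4 to 102, with Ano1 called higher and Kit at 0 and 5 reads. The 7 smooth muscle markers summed to 1660 to 3330 CPM and 548 to 829, with Actg2 (-3.08, adjusted p 0.0044) and Cnn1 (-1.25, adjusted p 0.00611) lower and Myh11 not called (-0.44, adjusted p 0.632). Smtn (0.23, adjusted p 0.507) and Synpo2 (0.53, adjusted p 0.54, edgeR) lay above 0 and were not called. The untested Des held 20 and 11 reads and Myocd 30 and 3. The 8 fibroblast markers summed to 41300 to 52000 CPM and 12500 to 24000, with Col1a1 (-1.65, adjusted p 0.00761) and Col1a2 (-1.76, adjusted p 0.00633, edgeR) lower. With an estimated correlation within lines, Epcam, Actg2 and Cnn1 kept their calls (adjusted p 0.0321, 0.0129 and 0.0321), while Msln (0.129), Ano1 (0.135), Col1a1 (0.0981) and Col1a2 (0.0791) did not. The part of these shifts in the Foxf1 result was not tested.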

How the data were processed

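The authors aligned reads to GRCm38 with STAR and quantified transcripts with Salmon in an nf-core pipeline, with tool versions and strand setting not given in the sources used here. The deposited tables hold estimated counts and TPM for 109617 transcripts. Counts were summed to genes with GENCODE M21 (GRCm38; 98.72% of transcripts matched) and rounded, giving 45321 genes; unmatched transcripts held 0.262% to 0.303% of reads and were left out. CPM use TMM-scaled library sizes.

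Genotypes were compared with edgeR 4.0.16 (R 4.3.3, quasi-likelihood test, genotype only, expression filter, TMM, Benjamini-Hochberg over 12963 genes). A second fit had 1 mean per line. Standard errors came from the coefficient and its F statistic. Alternatives used DESeq2 1.42.0 and limma 3.58.1. Scripts were tested on simulated data with independent libraries and no difference between cultures. False calls that arise when replicates share a culture were therefore not measured. Replicate libraries were not duplicates (their counts differed beyond sampling noise) and entered as separate samples.

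The 10 genes and all lists were chosen with earlier results of these data known. Other genes named are, per list, up to 2 that rose and 2 that fell most among called, non-overlapping genes averaging 1 CPM or more in either genotype, or else the 2 most abundant; tested locus neighbours; and, for 3 members, the 3 most correlated genes. Nkx3-2, Bmp3, Cdon and Boc were named after their values were seen. Some genes that this rule picks are not reported here.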

Additional observations from a re-analysis of the deposited data

Results flagged for a closer look

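In Fib-Ctrl, the highest of the 4 Foxf1 values, 131 CPM in line 2 replicate 2, stood apart from the other 3, which lay between 107 and 109 CPM. Chance alone marks about 1 in 20 groups of 4 independent values in this way, and 20 groups of 4 libraries were examined. Replicates of a culture are not independent and the groups share libraries, so that rate is only a rough guide here.

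The genotype contrast differed between line 1 and line 2 for 3 of the 7 tested members, by a test of the difference itself (edgeR). The difference, line 2 minus line 1, was 4.79 on the log2 scale for Gas1 (adjusted p 0.00193), 1.84 for Foxf2 (adjusted p 0.0105) and 0.88 for Gli3 (adjusted p 0.0221). Gas1 was -1.11 in line 1 and 3.68 in line 2, Foxf2 -1.80 and 0.04, and Gli3 -0.15 and 0.73. Fib-Ctrl line 2 gave the low Gas1 values (mean 10.3 CPM against 93.3 to 201 in the other lines), and Fib-dZeb1 line 1 the low Foxf2 values (15.2 CPM against 31.9 to 52.9).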

How the results depend on the processing

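Members called lower fell from 1 to 0 with library size only, with the reads of each line summed, with limma on log2(TPM + 1), with limma-voom and a correlation within lines, and, added after seeing the data, without both libraries of Fib-dZeb1 line 1 or of line 2; leaving out single libraries gave 0 to 1. Without Fib-Ctrl line 1 (also added), 2 members were called higher. Signs turned for Gli2 (-0.14), Ptch1 (-0.15) and Gas1 (-0.84) without Fib-Ctrl line 2, for Ptch1 (-0.02) and Gas1 (-0.18) without Fib-dZeb1 line 2, and for Ptch1 with lines summed (-0.01). Leaving out single libraries gave -0.09 to 0.15 for Ptch1 and -0.30 to 0.84 for Gas1. With library size only, which moved the median of all genes from -0.005 to 0.173 (2272 higher and 719 lower against 978 and 1121), Gli3 in line 1 read 0.0 and Smo in line 2 0.14, and line 2 had 0 members lower. Deviations of same-numbered libraries from their genotype means correlated at -0.04 to 0.20. They also hold line differences, so they cannot show whether replicate numbers share an effect. With the replicate block, Foxf1 was -0.44 (adjusted p 0.029, edgeR), with 920 genes higher and 1046 lower. In the fit by line, the block left 4 members lower in Fib-Ctrl line 2 and 2 higher in Fib-dZeb1 line 2. Calls over all genes rose there too, from 1130 to 1635 and from 439 to 879. The line contrasts differed for 4 members instead of 3 (Gli2 added, 1.32, adjusted p 0.0407, as with library size only). Over all genes, calls in that direction rose from 1003 to 1552. Of 136 tested genes of the pathway lists, 7 were called higher and 9 lower in the main fit, and 17 and 6 with library size only. With the correlation within lines 1 and 2 were called, and by DESeq2, which has its own filter, 14 and 19. Ranks differed for 4 members in CPM. Over all 12963 genes tested, calls fell to 9 higher and 6 lower with lines summed, 114 and 146 with the correlation within lines, and rose to 1573 and 1758 by DESeq2 (of 15088). The causes were not tested. Depth limits Gli1, Hhip and Foxl1, which held at most 27, 9 and 9 reads in a library.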
